A study of Mus musculus with 2 samples.

Results

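The clustered protocadherins are a family of neuronal cell-surface adhesion genes that lie side by side in 3 tandem arrays, alpha, beta and gamma, on mouse chromosome 18. They were taken as the protein-coding genes of the RefSeq annotation of GRCm38.p6 (the assembly behind mm10) whose symbols start with Pcdha, Pcdhb or Pcdhg followed by a digit, a or b. The rule found 52 of 21774 protein-coding genes, 12 alpha, 22 beta and 18 gamma genes. A further 5 genes of the arrays, the C-type genes Pcdhac1, Pcdhac2, Pcdhgc3, Pcdhgc4 and Pcdhgc5, do not meet the rule and are described beside the members, which makes 57 genes in all.

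Dimethylation of histone H3 at lysine 9 (H3K9me2), a modification of repressed chromatin, was mapped by CUT&Tag: an antibody against the mark tethers a transposase, which cuts the DNA nearby and adds sequencing adapters. There was 1 library from activated B cells of jmjd1c B KO mice (KO) and 1 from activated B cells of wild-type mice (WT), both of the C57BL/6 strain. Jmjd1c belongs to the KDM3 group of jumonji proteins, known for H3K9 demethylation, and the study asks where the mark differs between the genotypes. The driver of the knockout, the stimulus that activated the cells and the age and number of the mice are not given in the sources used here. With 1 library per genotype there are no replicates, and no test was run. All intervals are 95% intervals that cover counting error only.

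In an alpha or gamma array, each variable exon has its own promoter and is spliced to a set of exons shared by the whole array, so the annotated gene bodies are nested and end together. Beta genes consist of a variable exon with no shared exons. A neuron switches on only a few of these promoters, in a choice that in mouse neurons involves CTCF, cohesin and DNA methylation, and the resulting set of proteins lets the neuron tell its own branches from those of other neurons. The C-type genes lie at the end of the alpha and gamma arrays and are less subject to this choice. The genes are studied mainly in neurons.

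The lists rested on 34502392 tags in KO and 33474010 tags in WT, which gave 32149 and 31623 peaks on chromosomes 1 to 19, X and Y. The authors' peak caller extended tags to a modelled fragment length, d, of 189 bp in KO and 292 bp in WT, which is also the smallest peak in each list, so widths, pileups and q-values are not directly comparable between the lists. No peak lay in the window of Jmjd1c in either library, so the lists do not check the knockout. A list of 8 B cell markers had no peak in either library. Among 6 T cell markers Themis had 23 in KO and 22 in WT and Bcl11b had 0 and 1. Among 4 myeloid markers Adgre1 had 1 in each. Of all protein-coding genes, 9.9% had a peak in KO and 9.69% in WT, so 0 of 8 is near the background by gene count. This background is not matched on length. The 8 windows spanned 0.698 Mb in all, and over all chromosomes there were 12.1 peaks per Mb in KO and 11.9 in WT. Whether the B cell markers had fewer peaks than other genes of their length was not tested. A peak list does not identify a cell type.

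The protocadherin locus was an island of H3K9me2 peaks in a stretch of chromosome 18 with none. Between 2 kb before Pcdha1 and 2 kb after the last gamma gene (chromosome 18 from 36928285 to 37843873, mm10), the KO library had 22 peaks (Poisson interval 13.8 to 33.3) and the WT library 21 (13.0 to 32.1). The 1 Mb before the locus and the 1 Mb after it held 0 peaks in either library, which allows up to 3 peaks per Mb in each flank by the limit of 3 counts used here for a count of 0 (the two-sided Poisson interval reaches 3.69). Per Mb, the locus had 24.03 peaks in KO and 22.9 in WT. Against the limit of 3 peaks over both flanks together, the density was at least 16.0-fold higher in the KO locus than in its flanks and at least 15.3-fold higher in the WT locus. These folds take the locus counts as they are. With their counting error included, the lower limit of the exact interval of the ratio was 11.97-fold in KO and 11.4-fold in WT.

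The flanks were not gene-poor. They held 23 complete protein-coding genes before the locus and 12 after it, and 0 of them had a peak within 2 kb in either library. Among them were Zmat2, the last protein-coding gene before Pcdha1, and the non-clustered protocadherins Pcdh1 and Pcdh12. Diaph1, an actin-nucleating formin gene whose lower coordinate lies inside the last 2 kb of the locus and whose body runs into the flank, had no peak either.

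**Figure D1:**
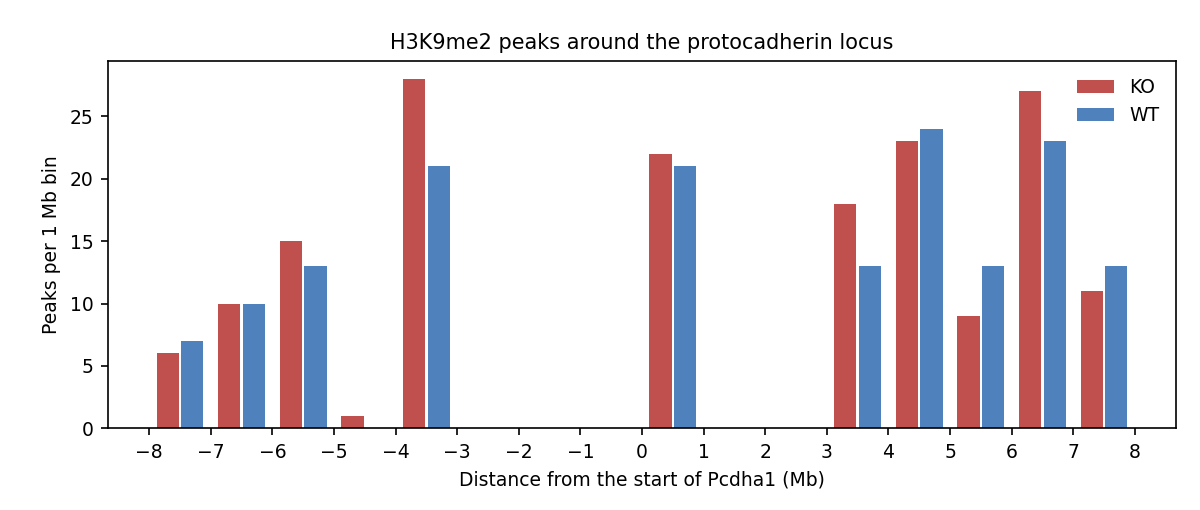
Peaks per 1 Mb bin (vertical axis) against distance from the start of Pcdha1 in Mb (horizontal axis), KO bars left of WT bars. The bin that begins at Pcdha1 holds 22 KO and 21 WT peaks, and the 3 bins before it and the 2 bins after it hold 0.

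The empty stretches on both sides reached far beyond 1 Mb. Before the first peak of the locus, the nearest peak was 3.31 Mb away in KO and 3.23 Mb away in WT. After the last peak of the locus, which lay in the beta array, the next peak was 2.83 Mb away in both KO and WT. In each list the gap before was the longest and the gap after the second longest between neighbouring peaks on chromosome 18, among 1138 gaps in KO and 1154 in WT. Over all chromosomes the gaps ranked 61 and 81 of 32128 in KO and 63 and 88 of 31602 in WT. The median gap between neighbouring peaks on the chromosome was 21.7 kb in KO and 22.3 kb in WT.

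Set against the chromosome and the genome, the locus was denser in peaks than the average, and many windows held more. The rest of chromosome 18 had 12.9 peaks per Mb in KO and 13.1 in WT, so the locus was 1.86-fold denser in KO (1.16 to 2.84) and 1.75-fold denser in WT (1.08 to 2.69). In 2894 adjoining windows of the length of the locus (915.6 kb) laid along all chromosomes, the median number of peaks was 6 in KO and 6 in WT. Of these windows, 15.3% held more peaks than the locus in KO and 16.6% in WT, and 24.2% and 25.4% held none.

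Within the locus, peaks lay in the alpha and beta arrays and in the gap between them, and the gamma array had none. The alpha array, 262.6 kb with 2 kb on both sides, held 11 KO peaks and 10 WT peaks, or 41.9 per Mb (20.9 to 74.9) and 38.1 per Mb (18.3 to 70.03). The beta array, 260.4 kb long, held 9 KO peaks and 10 WT peaks, or 34.6 per Mb (15.8 to 65.6) and 38.4 per Mb (18.4 to 70.6). The alpha to beta ratio of density was 1.21 in KO (0.457 to 3.31) and 0.992 in WT (0.370 to 2.65), so a difference between these arrays was not detectable at these counts.

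The gamma array, 184.1 kb with 18 members and 3 C-type genes, held 0 peaks in either library. A count of 0 allows up to 16.3 peaks per Mb there by the limit of 3 counts, and the two-sided Poisson interval reaches 20.04. Against the limit of 3 counts, density was at least 2.57-fold higher in alpha and at least 2.12-fold higher in beta in KO, and at least 2.34-fold and 2.36-fold higher in WT. With the counting error of alpha and beta included, the lower limits of the exact intervals were 1.76-fold and 1.395-fold in KO, and 1.57-fold and 1.58-fold in WT. The 136.4 kb between beta and gamma, which hold the mitochondrial carrier gene Slc25a2 and the TFIID subunit gene Taf7, also had no peak in either library. The 72.1 kb between alpha and beta, with no protein-coding gene of its own, held 2 KO peaks and 1 WT peak. Where no peak was called, signal below the authors' threshold can still be present. Reads from similar variable exons can be placed on the wrong copy, and the part of this in any member's call was not tested.

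**Figure D2:**
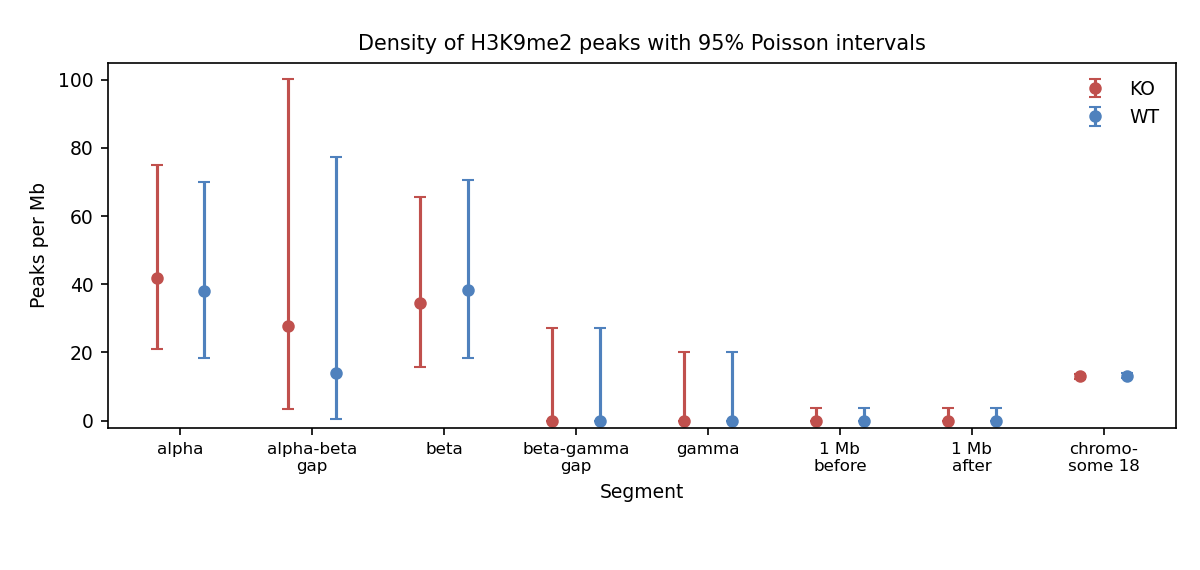
Peaks per Mb (vertical axis) in segments of the locus, in its flanks and on chromosome 18, KO left of WT, with exact 95% Poisson intervals as bars. Alpha and beta lie between 34.6 and 41.9 per Mb, gamma and both flanks at 0.

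KO and WT did not differ in peak number beyond counting error in any of these segments. The KO to WT ratio was 1.05 over the locus (0.550 to 2.003), 1.10 in alpha (0.424 to 2.89) and 0.900 in beta (0.324 to 2.46). Over all chromosomes it was 1.02.

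Counted gene by gene, the nested bodies inflate the alpha result, so each stretch was also given to 1 gene only. With the gene body and 2 kb on both sides as the window, 21 of the 52 members had a peak in KO and 22 in WT, against a background of 9.9% of all protein-coding genes in KO and 9.69% in WT. Of these members 18 had a peak in both libraries, 3 in KO only and 4 in WT only, against 7.78%, 2.11% and 1.9% of all protein-coding genes. These background shares are not matched on length, and no matched share was computed for the long alpha and gamma bodies. The count held all 12 alpha genes in both libraries because their windows share the same peaks. The windows summed to 120 peaks in KO and 113 in WT, whereas their union of 593.3 kb held 20 peaks in each library. When each gene had only the stretch from its own start to the start of the next gene of its array, 14 members had a peak in KO and 15 in WT, 5 of 12 alpha genes and 9 of 22 beta genes in KO, and 5 and 10 in WT. Of the 52 members, 10 then had a peak in both libraries, 4 in KO only, 5 in WT only and 33 in neither. No share over all protein-coding genes was computed for such stretches. The background shares above are for gene body windows and do not apply to these counts.

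The 3 read-through genes Gm37013, Gm38666 and Gm38667, whose annotated bodies run from an alpha start to the gamma end, are not members. Their windows held the same alpha and beta peaks again, 20 to 22 in KO and 20 to 21 in WT.

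**Figure D3:**
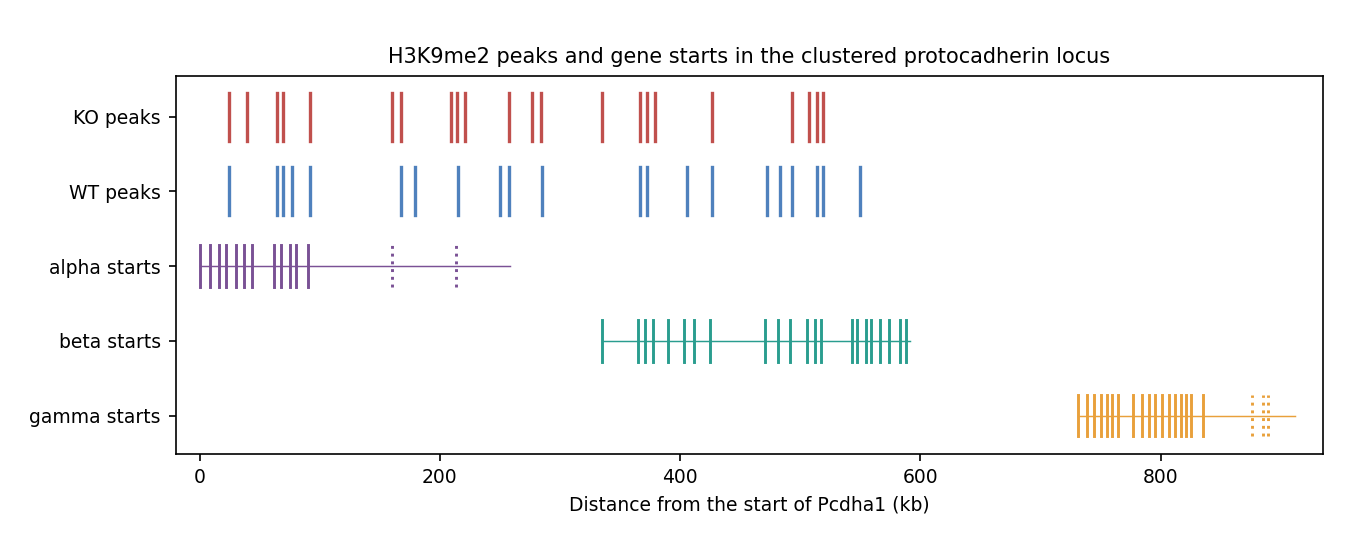
Peak midpoints of KO and WT (upper rows) and gene starts of the 3 arrays (lower rows; dotted starts are C-type genes) by distance from the start of Pcdha1 in kb. Horizontal lines run over each array from its first start to its last end. KO and WT peaks sit over alpha and beta, and no peak sits over gamma.

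Most peaks sat at a similar distance past a gene start. Here the start is the lower coordinate of the gene, which in the alpha and gamma arrays is the end that differs between genes and carries the variable exon. Of the locus peaks, 14 of 22 in KO (63.6%, exact binomial interval 40.7 to 82.8%) and 16 of 21 in WT (76.2%, 52.8 to 91.8%) had their midpoint 1 to 2.5 kb past the start of a member or C-type gene. By array, these were 6 of 11 KO peaks (54.5%, 23.4 to 83.3%) and 6 of 10 WT peaks (60%, 26.2 to 87.8%) in alpha. In beta they were 8 of 9 KO peaks (88.9%, 51.8 to 99.7%) and 10 of 10 WT peaks (100%, 69.2 to 100%). The zone of 1 to 2.5 kb, chosen after the positions were seen, made up 9.34% of the locus. The peaks in it lay at a median of 1852 bp past the start in KO (1180 to 2155 bp) and 1850.5 bp in WT (1573 to 2219 bp). In the gamma array the zone made up 17.1% of the length and held 0 peaks. On the other chromosomes, the zone was laid downstream of the transcription starts, with strand, of the 17492 protein-coding genes found in a RefSeq promoter table. There it held 0.497% of KO peaks and 0.437% of WT peaks and made up 1.14% of the length.

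**Figure D4:**
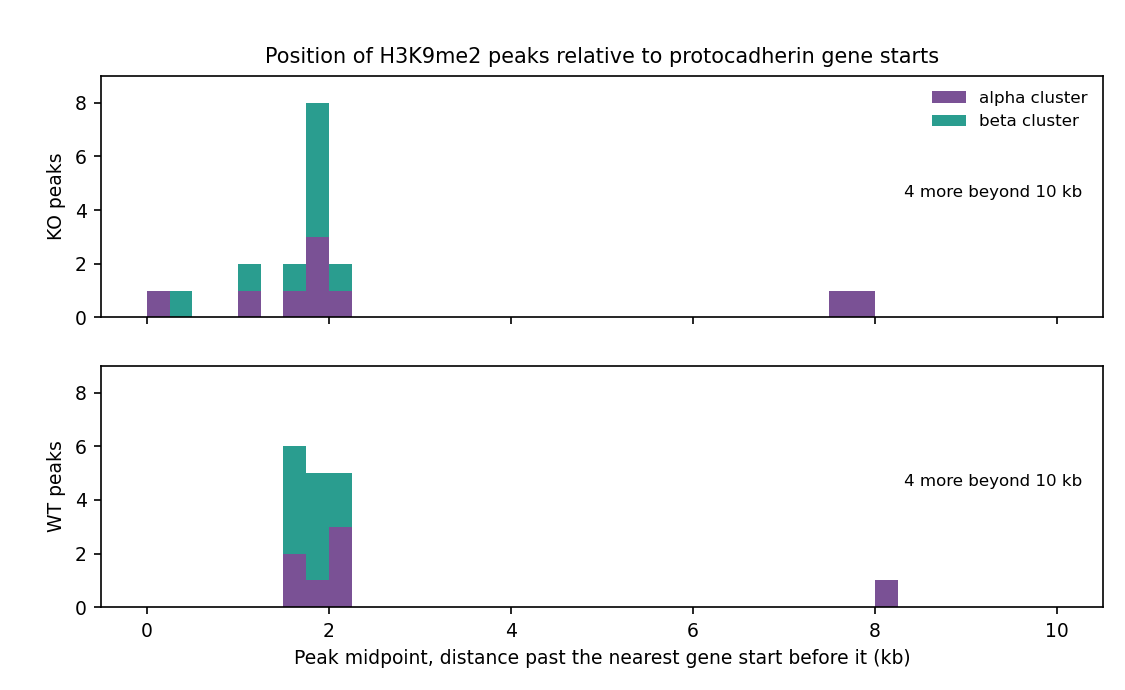
Number of peaks (vertical axes, KO above WT) by distance of the peak midpoint past the nearest gene start before it, in narrow bins up to 10 kb. Alpha and beta peaks pile up near 1.85 kb in both libraries, and 4 more peaks in each lie beyond 10 kb.

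In the alpha array, 4 members carried a peak past their start in both libraries. Pcdha4 had it at 36954186 to 36954946 in KO and at 36954643 to 36954934 in WT, with midpoints 1877 and 2099 bp past the start. Pcdha8 had it at 36994528 to 36994716 in KO and at 36994341 to 36994682 in WT, 2155 and 2044 bp past the start. These genes encode variable alpha ectodomains, which bind the same isoform on a facing membrane.

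Among the peaks past an alpha member's start, that of Pcdha9 was the most significant in both lists, at 36999195 to 37000186 in KO and at 36999933 to 37000265 in WT. Its −log10 q-value was 4.39 in KO and 5.13 in WT, above 86.5% and 88.2% of the peaks of its list. Pcdha12, the last alpha member, had peaks at 37021489 to 37022363 in KO and 37021463 to 37022363 in WT, which end at the same base. Pcdha6 had a peak in KO only, at 36969153 to 36969894, with the nearest WT peak 14219 bp away. Pcdha10 had one in WT only, at 37006825 to 37007375, with the nearest KO peak 6639 bp away. The other 6 alpha members, Pcdha1, Pcdha2, Pcdha3, Pcdha5, Pcdha7 and Pcdha11, had no peak between their own start and the next in either library.

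The stretch after Pcdha12, which holds the C-type starts and the shared alpha exons, had 6 KO peaks and 5 WT peaks. Pcdhac2 had a peak past its start in both libraries, at 37144102 to 37145670 in KO and at 37145080 to 37145507 in WT. It had the highest pileup of the locus in each list, 29.1 in KO and 42.7 in WT, above 91.7% and 94.2% of the list, but a fold enrichment of only 2.68 and 2.44 over the local background. At the start of Pcdhac1 a peak was called in KO only, at 37089761 to 37090980. It was the only peak of the locus to cover the start of a member or C-type gene.

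Further peaks lay in the stretches between the C-type starts and the array's end. One, 7864 bp past the Pcdhac1 start in KO and 8038 bp in WT, was in both lists. Others were in 1 list only, at 37139398 and 37151111 in KO and at 37109235 and 37180004 in WT (start positions). A peak at 37188064 to 37188254 in KO and 37187830 to 37188450 in WT lay beyond the end of all alpha genes except Pcdha6, whose annotated end is later. It was the most significant KO peak of the locus, with a −log10 q-value of 4.57, against 2.94 in WT. Between alpha and beta, a peak at 37214649 to 37214917 in KO overlapped one at 37214851 to 37215233 in WT, and a second, at 37206262 to 37207050, was called in KO only.

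In the beta array, peaks lay inside the gene bodies. The beta genes are 2340 to 5271 bp long, and the midpoint of all 9 KO and all 10 WT peaks was inside a body, at a median of 50.5% of its length in KO (14.5 to 77.2%) and 56.1% in WT (37.4 to 74.3%). Of 22 beta members, 9 had a peak in KO (40.9%) and 10 in WT (45.5%). Among the 2340 protein-coding genes of the same length range, the background was 4.96% in KO and 4.96% in WT. It was 16.0% and 16.2% for the 1109 olfactory receptor genes and 14.0% and 14.0% for 350 vomeronasal receptor genes, other tandem families of which a sensory neuron uses few members. By density the olfactory receptor genes were closer to the protocadherins. Per Mb of joined windows they had 30.0 peaks in KO and 30.1 in WT, against 33.7 in each library for the 52 members. The vomeronasal receptor genes had 16.2 in KO and 14.0 in WT. These shares and densities describe 2 libraries and were not tested against each other.

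Of the beta members, 6 had a peak in both libraries, 3 in KO only and 4 in WT only, against 3.29%, 1.67% and 1.67% of genes of that length. Both libraries marked Pcdhb2, Pcdhb3, Pcdhb8, Pcdhb11, Pcdhb13 and Pcdhb14. Pcdhb14 had the most significant WT peak of the locus (37449043 to 37449979, −log10 q-value 5.86, above 92.9% of the WT list), and the KO peak inside it (37449257 to 37449872) had a −log10 q-value of 2.83, above 40.8% of the KO list. Pcdhb2 had the most significant beta peak in KO (37296843 to 37297121, −log10 q-value 4.56, above 88.5% of the list), and its WT peak (37296691 to 37297114) had 4.05, above 72.5%. The order of the members by significance was thus not the same in the 2 lists.

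At Pcdhb3 the peaks were at 37302530 to 37303040 in KO and 37302104 to 37302859 in WT, with −log10 q-values of 2.63 and 5.82. At Pcdhb8 they were at 37356026 to 37356876 in KO and 37356698 to 37356990 in WT, and at Pcdhb11 at 37423005 to 37423486 in KO and 37422872 to 37423672 in WT. At Pcdhb13 they were at 37443954 to 37444707 in KO and 37443853 to 37444404 in WT. Each pair overlapped within 1 gene body.

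Peaks in KO only were at Pcdhb1 (37265236 to 37265472), Pcdhb4 (37308950 to 37309432) and Pcdhb12 (37437481 to 37437669). Peaks in WT only were at Pcdhb6 (37335804 to 37336095), Pcdhb9 (37402453 to 37402951), Pcdhb10 (37413194 to 37413648) and Pcdhb16 (37479380 to 37480098). The nearest peak of the other list was 6091 to 31219 bp away for the KO-only sites and 9357 to 29508 bp away for the WT-only sites. The 9 beta members with no peak in either library were Pcdhb5, Pcdhb7, Pcdhb15 and the last 6 of the array, Pcdhb17 to Pcdhb22. The last peak of the locus was thus at Pcdhb14 in KO and at Pcdhb16 in WT.

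The gamma array, in which A-type and B-type genes are interspersed before the C-type genes, had 0 of 12 A-type and 0 of 6 B-type members with a peak in either library. Gamma starts were closely spaced, with a median of 5.33 kb between neighbouring members, against 7.35 kb in alpha and 7.84 kb in beta.

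Peaks were spaced more widely than the genes. The median distance between neighbouring peak midpoints was 18.6 kb in KO and 14.8 kb in WT in the alpha array, and 10.5 kb in KO and 20.9 kb in WT in the beta array. Over the locus it was 15.0 kb in KO (5.07 to 68.4 kb) and 20.9 kb in WT (5.38 to 81.9 kb), and over chromosome 18 it was 22.2 kb and 22.8 kb.

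Locus peaks lay low in their lists by pileup and near the middle by significance. The median pileup was 15.0 in KO (13 to 29.1) and lay at a median percentile of 16.9 of the KO list. It was 19.7 in WT (16.8 to 42.7), at a median percentile of 19.3 of the WT list. The median fold enrichment, the authors' own value, was 3.26 in KO, against 3.08 over the KO list, and 3.11 in WT, against 2.72 over the WT list. The median −log10 q-value was 2.83 in KO and 3.65 in WT, against 3.01 and 3.27 over the lists. No peak of the locus reached a pileup of 100. At a q of 1e-05 or lower, 0 KO peaks and 4 WT peaks of the locus remained, at Pcdha9, Pcdhb3 and Pcdhb14 and in the stretch after Pcdhac1, and q-values depend on d.

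Peaks covered 1.43% of the locus in KO and 1.18% in WT, although over all chromosomes the KO list covered less, 0.554% against 0.675% in WT. By array, the covered share was 2.92% in KO and 1.80% in WT in alpha, 1.69% in KO and 2.1995% in WT in beta, and in the gap between them it was 1.47% in KO and 0.531% in WT. The KO share was thus higher in alpha and the gap and lower in beta. The gap rests on 2 KO peaks and 1 WT peak. Over the locus the counting intervals of the share overlap, 0.899 to 2.17% in KO and 0.733 to 1.81% in WT. A difference between the genotypes by array was not tested. The median width was 542.5 bp in KO and 455 bp in WT, or 353.5 and 163 bp after d was subtracted. In the whole lists it was 376 bp in KO and 486 bp in WT, or 187 and 194 bp after d was subtracted. The peaks at Pcdhac2 (1569 bp in KO and 428 bp in WT) and, in KO alone, at Pcdhac1 (1220 bp) were the widest KO peaks of the locus.

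Of the locus peaks, 14 of 22 in KO (63.6%, 40.7 to 82.8%) overlapped a WT peak by at least 1 bp, and 14 of 21 in WT (66.7%, 43.03 to 85.4%) overlapped a KO peak. Over all chromosomes the shares were 45.9% in KO and 46.4% in WT, which lie inside both intervals. Joined where they overlapped, the peaks formed 29 sites, of which 14 were in both lists, 8 in KO only and 7 in WT only. In alpha these numbers were 7, 4 and 3, and in beta 6, 3 and 4. The median −log10 q-value was 2.88 for overlapped and 2.71 for other peaks in KO, and 4.01 and 2.82 in WT.

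**Figure D5:**
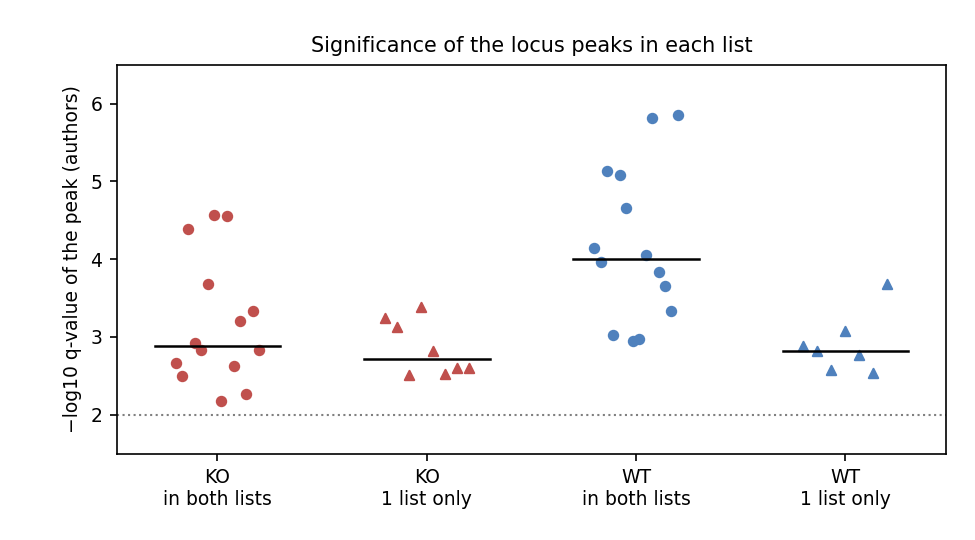
The authors' −log10 q-value (vertical axis) of each locus peak, KO left of WT, split into peaks that overlap the other list (circles) and peaks in 1 list only (triangles); black lines are medians and the dotted line is the calling threshold. In WT the overlapped peaks have the higher median, 4.01 against 2.82, and in KO the medians are 2.88 and 2.71.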

How the data were processed

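H3K9me2 CUT&Tag peaks of 1 KO and 1 WT library were analysed, with the genotype taken from the labels. Tools in the submitters' processing notes, given with no role, are deepTools, HOMER, MACS2, Picard, SAMtools 1.11, Bowtie2 2.4.2 and Trim Galore 0.6.6, and the build is mm10. Per the file headers, the authors called broad peaks with MACS2 2.2.7.1 in each library, with q cutoffs of 0.01, duplicates kept, no control and a background window of 10000 bp. Marked domains that far exceed this window can go uncalled, since they enter their own background. The deposited pileup is a coverage signal of tags extended to d, not scaled between libraries. The deposited p-values and q-values are −log10 values, and fold enrichment is the authors' ratio to the local background.

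Peaks were counted by midpoint in the locus, arrays and flanks, and by an overlap of 1 bp in gene windows (gene body with 2 kb on both sides). The gene table gives no strand or exons. Counts carry exact Poisson intervals, shares exact Clopper-Pearson intervals and ratios exact binomial-based intervals (scipy 1.17.1). Where flanks or gamma held 0 peaks the ratio interval has no upper limit, and folds were computed against 3 counts. Counting functions were tested on simulated data. All members were accounted for, and those with a peak, the C-type genes and the genes between arrays were named. Members and lists were chosen with earlier results of these data known. No sequence is printed for this chromosome.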

Additional observations from a re-analysis of the deposited data

How the results depend on the processing

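Of 23 values recomputed under 12 alternatives, 152 of 190 results stayed within their counting interval or within 1.5 times the count, and 38 moved. KO peaks widened by the 103 bp difference in d, equal numbers of peaks, peaks with a pileup of 100 or more left out, a gene flank of 10 kb or none, and the C-type genes added moved 0 of them. Gamma and the 1 Mb flanks held 0 peaks under every alternative run. Settings that remove, join or widen peaks could not have added any there, so these runs do not test the empty stretches. The strict q had the greatest effect. At a q of 1e-05 or lower, KO had 0 peaks in the locus, alpha, beta and member windows, 0 members with a peak by window or unit, and 0% covered, so overlap of KO peaks, density against the flanks, spacing and the KO to WT ratio could not be computed. WT had 4 peaks in the locus (2 alpha, 2 beta), 4 in the member windows, 14 members by window and 3 by unit, 0.260% covered, 0% overlapped by KO, a density at least 2.91 times that of the flanks and a spacing of 147.03 kb. The q-values depend on d, and the cause of this difference between the libraries was not tested. With peaks at least 500 bp wide, the locus had 12 KO and 9 WT peaks, the member windows 11 and 9, and members by unit numbered 8 and 7, with density at least 8.74 and 6.55 times that of the flanks. In KO beta peaks then numbered 4, overlap was 33.3% and spacing 46.9 kb, and in WT alpha peaks numbered 4 and 0.705% was covered. With peaks merged within 5 kb, 2.89% was covered in KO and 2.24% in WT. A reciprocal overlap of 50% left 27.3% of KO and 28.6% of WT peaks overlapped. Flanks of 500 kb gave a density at least 8.01 times higher in KO and 7.65 in WT, and flanks of 2 Mb 32.04 and 30.6, since the limit scales with flank length. No paired analysis was possible because each genotype has 1 library. For the same reason no library could be left out.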

Other observations

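Of 12 non-clustered protocadherins, 8 had a peak in KO and 9 in WT (66.7% and 75%), against 9.9% and 9.69% of all protein-coding genes. Several of these genes are far longer than most, and no share matched on length was computed. They held 86 KO and 85 WT peaks in all, a KO to WT ratio of 1.01 (0.741 to 1.38). Pcdh9 had 19 peaks in KO and 25 in WT over a window of 883.1 kb, Pcdh7 had 20 and 21 over 421.1 kb, Pcdh11x had 19 and 16 over 624.4 kb, and Pcdh15, which encodes a hair-cell tip-link protein, had 19 and 16 over 1558 kb. Pcdh1, Pcdh12 and Pcdh18 had none in either library.

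Of 20 classical and type II cadherins, 12 had a peak in KO and 10 in WT (60% and 50%, against the same 9.9% and 9.69% and likewise not matched on length), with 54 and 52 peaks in all. Cdh12 led with 19 peaks in KO and 22 in WT, followed by Cdh18 with 8 and 10, Cdh13 with 7 and 4, and Cdh6 with 4 and 3. The 12 regulators of protocadherin promoter choice, among them the insulator protein gene Ctcf, the cohesin gene Rad21 and the H3K9 methyltransferase gene Setdb1, had no peak in either library. With 9.9% and 9.69% of all protein-coding genes carrying a peak, 0 of 12 is near the background by gene count. That background is likewise not matched on length. The 12 windows spanned 1.18 Mb in all, and over all chromosomes there were 12.1 peaks per Mb in KO and 11.9 in WT. Whether these genes had fewer peaks than others of their length was not tested.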
